A study of Rattus norvegicus with 8 samples.

Results

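The genes described here are a set of 37 lysosome genes, chosen by symbol: 11 cathepsins and other proteases, 11 glycosidases, 3 other hydrolases, 7 membrane proteins, 3 luminal cofactors, the regulator Tfeb and the autophagy receptor Sqstm1. The array table held 36 of the 37 among its 23188 transcript probe sets, and all 36 were among the 13163 probe sets bright enough to test. Naglu, a glycosidase that degrades heparan sulfate, has no probe set under that symbol in the annotation used and was not analysed here. RNA was measured on Clariom S rat arrays, which read each gene as 1 summarised probe set on a log2 scale. The rats were male Sprague-Dawley animals 10 weeks old, and the study asked how SGLT inhibition bears on kidney stone formation. There were 4 treatments: ethylene glycol and alfacalcidol for 2 weeks together with phlorizin, ethylene glycol and alfacalcidol without phlorizin, phlorizin alone, and control. Ethylene glycol and alfacalcidol are called EG below. Each treatment had 1 array of the outer medulla and 1 of the cortex, 8 arrays in all. The labels do not name alfacalcidol by group, so whether rats without ethylene glycol received it is unknown here. The dose of phlorizin and any pooling of RNA across animals are not given in the sources used here. Both zones were dissected from divided kidneys, and a treatment's 2 arrays may therefore share rats.

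Lysosomes are acidic organelles in which hydrolases break down proteins, glycans and lipids delivered by endocytosis, phagocytosis and autophagy. Most of these enzymes carry a mannose 6-phosphate tag that routes them to the lysosome, the membrane proteins protect and connect the organelle, and Tfeb, a transcription factor, activates many of the genes through short promoter elements. In the kidney, proximal tubule cells are rich in lysosomes because they take up and digest filtered protein, and macrophages carry a strong set of cathepsins. Ethylene glycol is metabolised to oxalate, which crystallises with calcium in the tubules, alfacalcidol is a vitamin D analogue, and phlorizin blocks the sodium glucose transporters SGLT1 and SGLT2.

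The 8 arrays had median log2 values of 7.39 to 7.58, and 23 background probes averaged 5.53 to 5.68 on each. The spiked control RNAs of the EG array of the cortex read lower than those of the other cortex arrays, with mean log2 levels of 6.42 against 7.67 to 8.23 for the poly-A spikes. Markers of the first proximal segment separated the zones: 14 of 15 were lower in the outer medulla (limma adjusted p under 0.05), with a median log2 difference of -8.45, and 8 of 10 thick ascending limb markers were higher there. The 8 markers of the straight proximal segment also averaged lower there, 9.90 against 13.49 in the cortex on the control arrays. In such bulk tissue, fewer cells of a type and less RNA per cell cannot be told apart.

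The EG arrays read higher for a subset of cathepsins and for Gpnmb, while most glycosidases and Mcoln1 read lower in the EG cortex; the EG difference of no single member passed the test. Both EG arrays lay above both arrays without EG within each zone for 10 of 36 members (27.8%, against 11.7% of all probe sets tested). These were Ctsc, Ctsd, Ctsk, Ctss, Ctsz, Gpnmb, Grn, Gusb, Lipa and Npc1. Gusb reached the brightness limit of the test on arrays with EG alone, so its place among them was partly set by that limit. Over the 12194 probe sets that reached it both with and without EG, a restriction chosen after seeing the data, the count was 9 of 35 members (25.7%, against 10.8%). Both lay below them in each zone for 4 members (11.1%, against 16.4%), namely Fuca2, Gla, Mcoln1 and Tfeb. The EG effect, averaged over both zones and both phlorizin arms, passed an adjusted p under 0.05 in limma for 0 of 36 members, against 5 of 13163 probe sets (0.038%). At an unadjusted p under 0.05, 8 members were higher with EG (22.2%, against 9.85% of all tested) and 1 was lower (2.78%, against 12.9%). The 8 include Gusb, and under the same restriction 7 of 35 were higher (20.0%, against 8.37%). Under other settings the member count ranged from 0 to 7, with 7 only where both zone arrays of a treatment were counted as separate samples. The test as reported rests on 4 treatment profiles with 1 residual degree of freedom. That degree of freedom is the EG by phlorizin interaction, so an EG difference that changes with phlorizin widens the standard error. Taken zone by zone, both EG arrays were the highest in the outer medulla for 20 members (55.6%, against 26.8% of all tested) and the lowest for 5 (13.9%, against 31.2%). In the cortex they were the highest for 11 (30.6%, against 21.0%) and the lowest for 14 (38.9%, against 31.1%). Gusb is among the highest in each zone, and under that restriction, which leaves it out, they were 19 (54.3%, against 25.7%) and 10 (28.6%, against 20.0%). The median log2 EG effect of the 36 members was 0.095, beside -0.055 over all probe sets tested.

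Pairs of single arrays were also counted where they lay at least 1 apart on the log2 scale, a 2-fold difference, with no test. With EG and phlorizin against phlorizin alone, Ctsd, Gpnmb and Lgmn were that much higher in the outer medulla (3 members, 8.33%, against 3.65% of all tested), and Ctss and Gpnmb in the cortex (2 members, 5.56%, against 2.43%). Gpnmb was the 1 member (2.78%, against 0.995%) in both zones, and 0 members were that much lower in either zone (3.01% and 1.55% of all tested in outer medulla and cortex) or in both (0.319%). With EG against the control, Ctsd, Ctsk, Ctsl, Ctss, Ctsz, Gpnmb and Lgmn were higher in the outer medulla (7 members, 19.4%, against 8.58%) and 0 were lower (9.69%). In the cortex, Ctsd, Ctsk, Ctss, Ctsz and Gpnmb were higher (5 members, 13.9%, against 9.66%), and Fuca1 and Mcoln1 were lower (2 members, 5.56%, against 12.7%), with Fuca1 at -0.997 after quantile normalization. The same 5 genes were higher in both zones (13.9%, against 4.9%) and 0 were lower in both (4.47%).

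**Figure D1:**
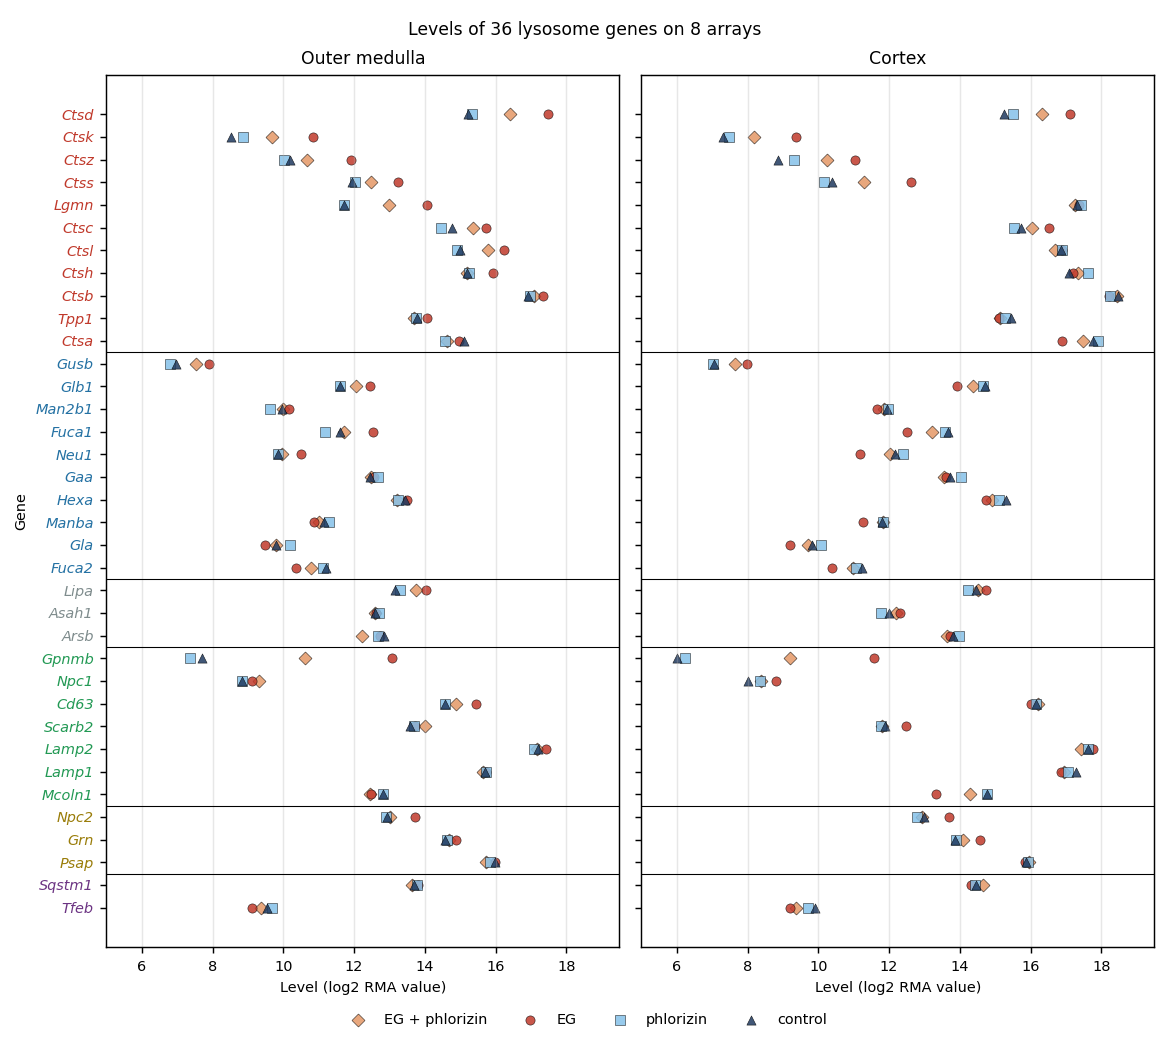
Log2 level of each of the 36 lysosome genes (y axis, grouped by class and coloured as such) on the 4 outer medulla arrays (left) and the 4 cortex arrays (right), 1 array per point with no error. Gpnmb, Ctsd, Ctsk, Ctss and Ctsz show both EG points to the right of both points without EG in each zone.

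Among the proteases, 5 of the 11 had both EG arrays above both arrays without EG in each zone. Ctsd, the main aspartic protease of the lysosome, had outer medulla log2 levels of 16.40 with EG and phlorizin and 17.47 with EG, against 15.33 with phlorizin alone and 15.21 in the control. Its cortex levels were 16.32 with EG and phlorizin and 17.12 with EG, against 15.50 with phlorizin alone and 15.24 in the control. The EG arrays stood above the others in both zones with no overlap, and within each zone the array with EG but no phlorizin was the highest. The EG difference was 1.07 with phlorizin and 2.26 without it in outer medulla RNA, and 0.83 and 1.88 in cortex RNA, and the mean EG effect was 1.51 (SE 0.31, limma adjusted p = 0.0868). Ctsk, a cysteine protease that cleaves collagen and is best known from osteoclasts, had log2 levels of 9.69 with EG and phlorizin and 10.84 with EG, against 8.87 with phlorizin alone and 8.53 in the control in the outer medulla. The cortex arrays read 8.18 with EG and phlorizin and 9.37 with EG, against 7.46 with phlorizin alone and 7.31 in the control. The 4 treatments had the same order as for Ctsd in each zone, and the EG effect averaged 1.48 (SE 0.36, limma adjusted p = 0.101). Of 4 other osteoclast markers tested, all 4 had a mean EG effect below 0, as did 7327 of the 13163 probe sets tested. For Acp5, the tartrate-resistant acid phosphatase, the mean EG effect was -0.83 (limma adjusted p = 0.15). For Atp6v0d2, which is also on a list of collecting duct markers, it was -1.25. Calcr and Mmp9 reached the brightness limit of the test only on arrays without EG, so their signs were partly set by that limit. The part of osteoclast-like cells in the Ctsk values was not tested.

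Ctss, a cysteine protease of antigen-presenting cells that trims the invariant chain of MHC class II, had log2 levels of 12.49 with EG and phlorizin and 13.23 with EG, against 12.02 with phlorizin alone and 11.95 in the control in the outer medulla. In cortex RNA the levels were 11.30 with EG and phlorizin and 12.62 with EG, against 10.17 with phlorizin alone and 10.40 in the control. Both EG arrays were the higher ones in each zone, and the EG difference was larger in the cortex (2.22) than in the outer medulla (1.29) without phlorizin. The EG effect differed between zones by -0.80 (SE 0.27, limma adjusted p = 0.368), outer medulla minus cortex, which did not pass. Averaged over zones, the effect was 1.28 (SE 0.28, limma adjusted p = 0.0933). Ctsz, a carboxypeptidase of the cathepsin family, read 10.68 with EG and phlorizin and 11.91 with EG, against 10.01 with phlorizin alone and 10.19 in the control in the outer medulla. Its cortex levels on the log2 scale were 10.26 with EG and phlorizin and 11.04 with EG, against 9.33 with phlorizin alone and 8.86 in the control. Again the groups did not overlap, with a mean EG effect of 1.38 (SE 0.31, limma adjusted p = 0.0952). Ctsc, the dipeptidyl peptidase that activates granule serine proteases, had smaller separations, with log2 levels of 15.37 with EG and phlorizin and 15.74 with EG, against 14.47 with phlorizin alone and 14.77 in the control in the outer medulla. Its levels in the cortex were 16.05 with EG and phlorizin and 16.51 with EG, against 15.54 with phlorizin alone and 15.73 in the control. The EG and other arrays did not overlap in either zone, and the effect averaged 0.79 (SE 0.21, limma adjusted p = 0.115).

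Lgmn and Ctsl stood out in the outer medulla. Lgmn, the asparaginyl endopeptidase that processes other cathepsins, had outer medulla log2 levels of 13.00 with EG and phlorizin and 14.06 with EG, against 11.70 with phlorizin alone and 11.72 in the control. In the cortex all 4 arrays lay within 17.25 to 17.43, and arrays with and without EG overlapped. The test of EG by zone gave 1.88 (SE 0.32, limma adjusted p = 0.211) for Lgmn, an unadjusted p = 0.0021. Ctsl, a broad cysteine endopeptidase, had log2 levels of 15.77 with EG and phlorizin and 16.23 with EG, against 14.91 with phlorizin alone and 15.00 in the control in the outer medulla and 16.69 to 16.90 over the 4 cortex arrays. Its zone contrast of the EG effect was 1.14 (SE 0.27, limma adjusted p = 0.284). For both genes the outer medulla levels with EG lay between those of the other outer medulla arrays and those of the cortex.

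The other 4 proteases had mean EG effects between -0.35 and 0.13. Ctsb, a cysteine protease with endopeptidase and dipeptidase activity, had log2 levels of 16.91 to 17.33 in the outer medulla and 18.21 to 18.48 in the cortex, and a mean EG effect of 0.11. Ctsh, an aminopeptidase, had 15.94 on the EG array of the outer medulla, and its other 3 arrays there lay between 15.18 and 15.25. Ctsa, a carboxypeptidase that also stabilises the Glb1 and Neu1 enzymes, had cortex levels of 17.48 with EG and phlorizin and 16.90 with EG, against 17.90 with phlorizin alone and 17.78 in the control. Both EG arrays were the lower ones for Ctsa in the cortex, and the mean EG effect over zones was -0.35 (SE 0.22, limma adjusted p = 0.387). Tpp1, a tripeptidyl peptidase, had a mean EG effect of -0.064. Over the 11 proteases, the median EG difference in the outer medulla was 0.67 with phlorizin and 1.23 without it, and in the cortex 0.19 and 0.11.

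Of the 10 glycosidases measured, 9 had lower levels with EG in the cortex in each phlorizin arm, against 38.1% of all probe sets tested, and Gusb was higher there. After quantile normalization the lower ones were 7 of 10 with phlorizin and 8 of 10 without it. Their median EG difference in the cortex was -0.24 with phlorizin and -0.58 without it, and in the outer medulla 0.05 and 0.15. Gusb, which cleaves glucuronic acid from glycans, had outer medulla log2 levels of 7.54 with EG and phlorizin and 7.89 with EG, against 6.80 with phlorizin alone and 6.97 in the control. Its cortex levels were 7.65 with EG and phlorizin and 7.98 with EG, against 7.03 with phlorizin alone and 7.04 in the control. The arrays with EG were above the others, but Gusb entered the test only because 3 of its EG arrays reached the brightness limit of 7.539, which no array without EG did. Its highest arrays therefore had to be arrays with EG, and its EG effect of 0.80 is a description.

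For Fuca1, Glb1, Neu1 and Man2b1 the EG difference was above 0 in the outer medulla and below 0 in the cortex in both phlorizin arms (4 of 36 members, 11.1%, against 5.44% of all probe sets tested), and 0 showed the opposite pattern (4.36% of all tested). Fuca1, an alpha-L-fucosidase, had log2 levels of 11.71 with EG and phlorizin and 12.55 with EG, against 11.16 with phlorizin alone and 11.60 in the control in the outer medulla. Its cortex levels were 13.20 with EG and phlorizin and 12.51 with EG, against 13.59 with phlorizin alone and 13.68 in the control. In the outer medulla the EG arrays were the higher ones and in the cortex the lower ones. Glb1, the beta-galactosidase that degrades gangliosides and keratan sulfate, had outer medulla levels of 12.05 with EG and phlorizin and 12.44 with EG, against 11.60 with phlorizin alone and 11.60 in the control. Cortex levels of Glb1 were 14.36 with EG and phlorizin and 13.92 with EG, against 14.65 with phlorizin alone and 14.72 in the control. Neu1, the sialidase that removes terminal sialic acid, had levels of 9.95 with EG and phlorizin and 10.50 with EG, against 9.84 with phlorizin alone and 9.85 in the control in the outer medulla. Its log2 levels in the cortex were 12.02 with EG and phlorizin and 11.17 with EG, against 12.40 with phlorizin alone and 12.16 in the control. The test of the EG effect between zones gave 1.52 (SE 0.37, limma adjusted p = 0.296) for Fuca1. For Glb1 it was 1.19 (SE 0.33, limma adjusted p = 0.326) and for Neu1 1.06 (SE 0.37, limma adjusted p = 0.374). Man2b1, an alpha-mannosidase, followed the same signs with smaller differences and a contrast of 0.47 (SE 0.27, limma adjusted p = 0.541). None of these 4 contrasts passed, and in limma 0 of 36 members passed the EG by zone test at an adjusted p under 0.05 (0.0% of all tested) and 6 of 36 at an unadjusted p under 0.05 (16.7%, against 12.4%). Of the 6, Lgmn, Fuca1, Glb1, Ctsl and Neu1 had the larger EG effect in the outer medulla (13.9%, against 6.47%) and Ctss in the cortex (2.78%, against 5.9%).

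Fuca2, a second fucosidase that is largely secreted, read 10.77 with EG and phlorizin and 10.36 with EG, against 11.12 with phlorizin alone and 11.21 in the control in the outer medulla. Its log2 levels in the cortex were 10.98 with EG and phlorizin and 10.40 with EG, against 11.06 with phlorizin alone and 11.25 in the control. Both EG arrays were the lower in each zone, and the mean EG effect was -0.53 (SE 0.25, limma adjusted p = 0.265). Gla, the alpha-galactosidase lost in Fabry disease, lay below the arrays without EG in both zones, with an EG effect of -0.43. Hexa, the beta-hexosaminidase alpha subunit, Gaa, the acid alpha-glucosidase that digests glycogen, and Manba, a beta-mannosidase, had mean EG effects of -0.18, -0.17 and -0.28. The scaling of the cortex EG array matters for such small values: the median EG minus control difference of the 36 members in the cortex was -0.069 as deposited, 0.095 after quantile normalization and -0.15 after median centring, and so changed sign with the scaling. With phlorizin on both sides it was -0.041 as deposited, 0.014 after quantile normalization and -0.048 after median centring.

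**Figure D2:**
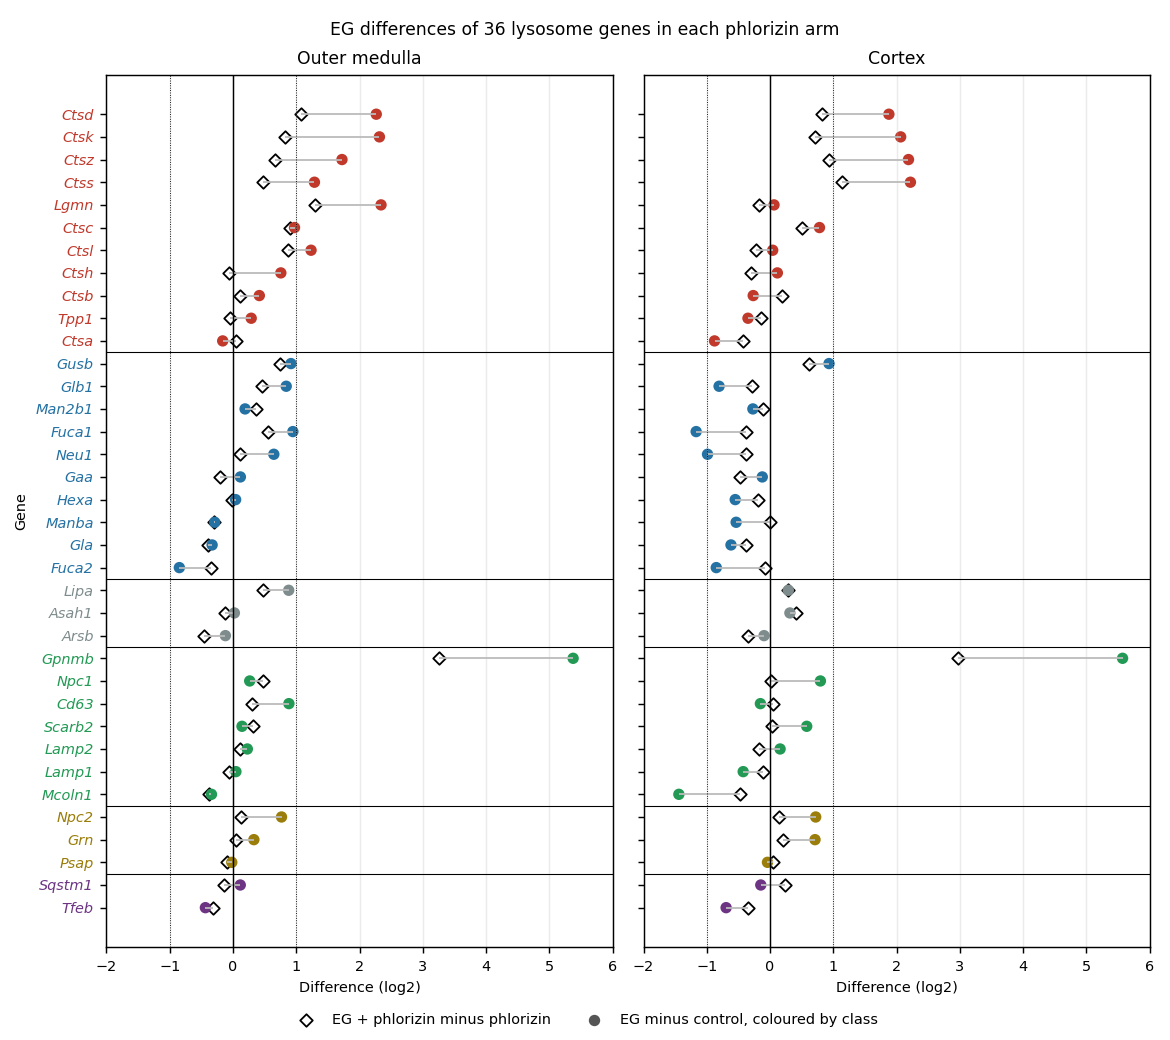
Log2 difference between EG and no EG (x axis) for each of the 36 lysosome genes (y axis), as EG with phlorizin minus phlorizin (open diamonds) and EG minus control (filled circles), in the outer medulla (left) and cortex (right), 1 pair of arrays per point with no error, dotted lines at -1 and 1. Gpnmb, Ctsd, Ctsk, Ctss and Ctsz lie to the right of 0 in both zones, while the glycosidases other than Gusb lie left of 0 in the cortex.

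The 3 other hydrolases had EG effects between -0.26 and 0.48. Lipa, the acid lipase that hydrolyses cholesteryl esters, had log2 levels of 13.76 with EG and phlorizin and 14.02 with EG, against 13.29 with phlorizin alone and 13.14 in the control in the outer medulla. The cortex levels of Lipa were 14.51 with EG and phlorizin and 14.75 with EG, against 14.22 with phlorizin alone and 14.46 in the control. The EG arrays were the higher in both zones, and the effect averaged 0.48 (SE 0.21, limma adjusted p = 0.246). Asah1, the acid ceramidase, and Arsb, a sulfatase of dermatan and chondroitin sulfate, had effects of 0.15 and -0.26. Among the 3 luminal cofactors, Npc2, a cholesterol carrier, had log2 levels of 13.02 with EG and phlorizin and 13.71 with EG, against 12.90 with phlorizin alone and 12.94 in the control in the outer medulla. In the cortex Npc2 read 12.93 with EG and phlorizin and 13.70 with EG, against 12.80 with phlorizin alone and 12.98 in the control, and EG with phlorizin lay below the control there. Grn, the precursor of the granulins, had both EG arrays above the others in both zones, and a mean EG effect of 0.32 (SE 0.22, limma adjusted p = 0.441). Psap, the precursor of the saposins, stayed within 15.74 to 15.99 on all 8 arrays.

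Gpnmb, a transmembrane glycoprotein of lysosomes and melanosomes in macrophages and injured cells, had the largest EG difference of the 36 in every zone and arm. In the outer medulla its log2 levels were 10.62 with EG and phlorizin and 13.08 with EG, against 7.36 with phlorizin alone and 7.71 in the control. Cortex levels of Gpnmb were 9.19 with EG and phlorizin and 11.57 with EG, against 6.22 with phlorizin alone and 6.002 in the control. The 4 EG arrays lay above all 4 others, and the array with EG and phlorizin lay between EG and the arrays without EG in each zone. Its levels on the cortex arrays without EG lay near the background probes. The mean EG effect of 4.29 (SE 0.53, limma adjusted p = 0.0696) did not pass. Its EG difference was 3.26 with phlorizin and 5.37 without it in outer medulla RNA, and 2.97 and 5.57 in cortex RNA. The gap between the phlorizin arms enters that SE. Gpnmb also belongs to a list of tubule injury markers, and 13 others of that list were tested. Of these, 13 of 13 were at least 1 higher in the EG outer medulla than in the control (8.58% of all tested). In the cortex 11 of 13 were (9.66% of all tested). Havcr1, Spp1 and Clu passed the EG test (limma adjusted p = 0.0355, 0.0463 and 0.0214).

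Mcoln1, the calcium channel of the lysosomal membrane, was the member lower with EG at an unadjusted p under 0.05. Its log2 levels in the outer medulla were 12.45 with EG and phlorizin and 12.47 with EG, against 12.83 with phlorizin alone and 12.81 in the control. Cortex levels were 14.29 with EG and phlorizin and 13.33 with EG, against 14.77 with phlorizin alone and 14.77 in the control, so EG arrays were below the others in both zones. The EG difference was -0.37 with phlorizin and -0.34 without it in outer medulla RNA, and -0.48 and -1.44 in cortex RNA. The effect averaged -0.66 (SE 0.23, limma adjusted p = 0.167). Npc1, the membrane cholesterol transporter that works with Npc2, had both EG arrays above both others in each zone, and a mean EG effect of 0.38. Lamp1 and Lamp2, the abundant glycoproteins that line the membrane, had mean EG effects of -0.14 and 0.078, and for Lamp1 the EG difference without phlorizin was 0.045 for outer medulla RNA and -0.43 for cortex RNA. Cd63, a tetraspanin, and Scarb2, the receptor that carries glucocerebrosidase, had 0.27 and 0.27. Tfeb itself read 9.38 with EG and phlorizin and 9.11 with EG, against 9.69 with phlorizin alone and 9.54 in the control in the outer medulla. Its cortex levels were 9.37 with EG and phlorizin and 9.21 with EG, against 9.72 with phlorizin alone and 9.90 in the control, both EG arrays below the others in each zone, with an EG effect of -0.45 (SE 0.21, limma adjusted p = 0.274). Sqstm1, which links ubiquitinated cargo to autophagosomes, had an EG effect of 0.013.

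Markers of macrophages and dendritic cells moved with the EG arrays. Of 17 tested from 20 listed, 14 in outer medulla and 16 in cortex were at least 1 higher with EG than in the control, and none was lower by that much. Over all probe sets tested, 8.58% and 9.66% were that much higher in outer medulla and cortex, and 9.69% and 12.7% lower. Cd163 is counted in both zones but reached the brightness limit only on arrays with EG, so its place was partly set by that limit. Summed unlogged over the 19 in the table, the log2 level of the markers was 17.84 to 18.58 on the EG arrays, against 17.01 to 17.26 on the arrays without EG. Cd74 was the highest of the 19 on every array, at 16.94 to 17.44 with EG and 16.22 to 16.71 without it. That 1 gene therefore weighs heavily in the sum. Mrc1 (the mannose receptor), Cd68 and Cd14 had mean EG effects of 2.98, 2.43 and 2.09 (limma adjusted p = 0.0823, 0.0696 and 0.0809). Itgam and Spi1 were too dim to test, with Itgam at 3.50 to 6.57 over the 8 arrays, and of 8 lymphocyte and neutrophil markers in the table only Cd4 was bright enough to test. Cd4 had a mean EG effect of 1.80 (limma adjusted p = 0.0771), and which cells carried it was not tested. The part of these markers in the cathepsin and Gpnmb values was not tested. Fibroblast and mural cell markers were also at least 1 higher with EG for 10 and 11 of 11 genes in the outer medulla and cortex, while 8 and 8 of 10 thick ascending limb markers were at least 1 lower.

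**Figure D3:**
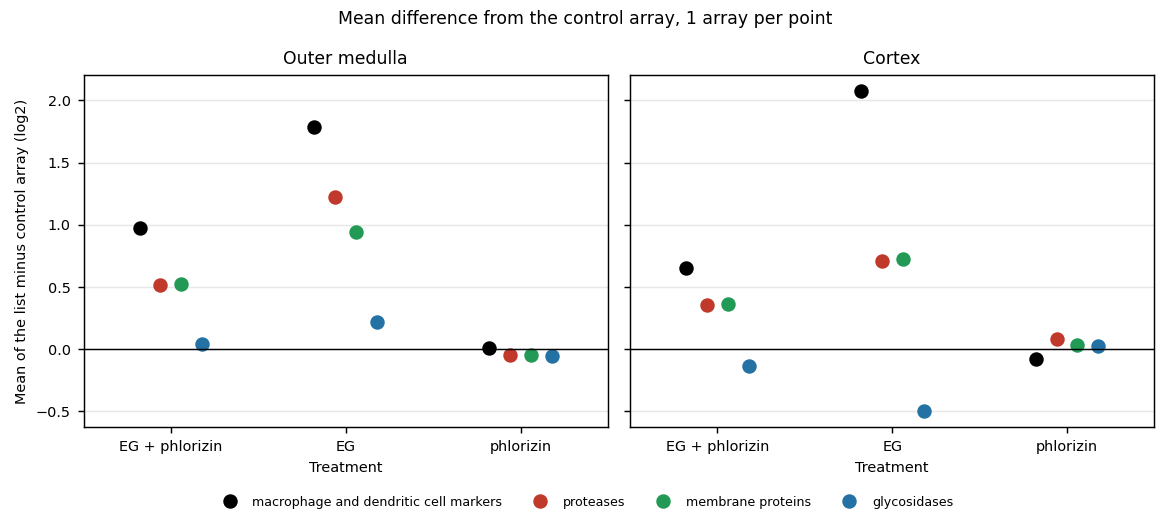
Mean log2 difference from the control array of the same zone (y axis) for EG with phlorizin, EG, and phlorizin (x axis), for 19 macrophage and dendritic cell markers, 11 proteases, 7 membrane proteins and 10 glycosidases, 1 array per point with no error. The proteases and macrophage markers were above the control on both EG arrays, the membrane proteins include Gpnmb, and the glycosidases averaged -0.50 in the EG cortex.

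Phlorizin in EG-treated rats was set against EG alone. Every one of the 11 proteases was lower with EG and phlorizin than with EG in the outer medulla, with a median difference of -0.74, beside 0.021 over all probe sets tested. Of all 36 members 30 were lower there (median -0.30), so the direction was not particular to the proteases. Members at least 1 lower were Ctsd, Ctsk, Ctsz, Gpnmb and Lgmn in the outer medulla (5 members, 13.9%, against 4.34% of all tested). In the cortex they were Ctsk, Ctss and Gpnmb (3 members, 8.33%, against 6.18%). Ctsk and Gpnmb were so in both zones (5.56%, against 1.71%), and 0 members were at least 1 higher in either zone (3.35% and 7.35% of all tested in outer medulla and cortex) or in both (1.15%). For Gpnmb the difference was -2.46 in outer medulla RNA and -2.38 in cortex RNA, and -1.16 and -1.19 for Ctsk. For Ctsd it was -1.07 and -0.80. The glycosidases ran the other way in the cortex, with 8 of 10 higher and a median difference of 0.46, beside -0.039 over all probe sets tested. Over all 36 members the cortex median was -0.0087 as deposited, -0.15 after quantile normalization and 0.11 after median centring, so its sign changed with the scaling. Neu1 (0.85), Fuca1 (0.69) and the membrane channel Mcoln1 (0.96) had the highest cortex values of this difference among the 36. These values share the EG arrays with the EG minus control differences above, so their opposite signs are not independent of them. Beside them, 4 of 17 macrophage markers in outer medulla and 13 of 17 in cortex were at least 1 lower with EG and phlorizin than with EG (4.34% and 6.18% of all tested). Cd163, which reached the brightness limit only on EG arrays, is among them in each zone.

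The EG difference was nearer 0 with phlorizin than without it for 24 of 36 members in the outer medulla (66.7%, against 66.3% of all tested) and 27 in the cortex (75.0%, against 73.6%). Those shares are close to the background. In the fit over both EG states, phlorizin passed an adjusted p under 0.05 in limma for 0 of 36 members (0.0% of all tested), and 0 members had an unadjusted p under 0.05 (3.56% of all tested). The phlorizin effect was -1.24 (SE 0.53, limma adjusted p = 0.995) for Gpnmb. For Ctsd it was -0.37 (SE 0.31, limma adjusted p = 0.995). Phlorizin alone against the control put 0 members at least 1 apart in either zone (0.782% of all tested in outer medulla and 1.15% in cortex), and its member differences spanned -0.55 to 0.37 for outer medulla arrays and -0.24 to 0.55 for cortex arrays.

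The outer medulla differed from the cortex for 29 of 36 members (80.6%, against 51.5% of all probe sets tested; limma adjusted p under 0.05, treatment as a block, 8 arrays). Of these, 21 were lower in the outer medulla (58.3%, against 18.8%) and 8 were higher (22.2%, against 32.7%). The members' median log2 difference was -0.80, beside 0.18 over all probe sets tested. Of the 10 glycosidases 7 fell and 0 rose in the outer medulla relative to the cortex, of the 11 proteases 7 fell and 3 rose, and of the 7 membrane proteins 4 fell and 3 rose. The outer medulla was the lower in all 4 treatments for 21 members (58.3%, against 23.6% of all tested) and the higher in all 4 for 8 (22.2%, against 40.9%). With the EG arrays left out, 28 members passed, and Lamp2 did not. Without the control arrays or without those with EG and phlorizin, 23 passed, and Asah1, Fuca1, Grn, Lamp2, Manba and Npc1 did not. Without the phlorizin arrays 24 passed, and the same genes but Npc1 did not. The shares of all probe sets that passed in these smaller fits are not given here.

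The lowest relative to cortex was Lgmn, with log2 levels of 11.70 to 14.06 over the outer medulla arrays against 17.25 to 17.43 over the cortex arrays. The groups did not overlap, and the difference was -4.72 (SE 0.41, limma adjusted p = 0.000227). Ctsa had 14.61 with EG and phlorizin and 14.95 with EG, against 14.57 with phlorizin alone and 15.12 in the control in the outer medulla, all below its cortex levels, a difference of -2.70 (SE 0.23, limma adjusted p = 0.000226). Glb1 fell by 2.49 on the log2 scale in the outer medulla (SE 0.29). Ctsh, Man2b1, Neu1, Hexa, Mcoln1, Fuca1, Tpp1, Ctsl, Lamp1, Cd63, Ctsb, Gaa and Arsb had differences from -1.93 to -1.17, and Lipa, Ctsc, Sqstm1, Manba and Lamp2 from -0.94 to -0.39. Lamp2 did not hold under quantile normalization, where its difference was 0.016 (limma adjusted p = 0.929). Fuca1 on the EG arrays was 12.55 in the outer medulla, against 12.51 in the cortex, and was lower in the outer medulla in the other 3 treatments.

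The 8 members higher in the outer medulla were Scarb2, Gpnmb, Ctsk, Ctss, Ctsz, Npc1, Grn and Asah1. Scarb2 had 14.01 with EG and phlorizin and 13.72 with EG, against 13.69 with phlorizin alone and 13.58 in the control in the outer medulla, against 11.79 to 12.47 over the cortex arrays, with no overlap and a difference of 1.76 (SE 0.19, limma adjusted p = 0.00048). Ctsk was higher by 1.40 (SE 0.14, limma adjusted p = 0.000334), and Ctss by 1.30 (SE 0.22, limma adjusted p = 0.0033). Gpnmb differed by 1.44, Ctsz by 0.83, Npc1 by 0.64, Grn by 0.59 and Asah1 by 0.56. Ctsd, Gla, Npc2, Psap, Fuca2, Tfeb and Gusb did not pass, with differences between -0.13 and 0.10. Of 17 macrophage and dendritic cell markers, 10 were higher in the outer medulla and 0 lower, and 14 of 15 first proximal markers were lower. Straight proximal segment markers also averaged lower there, 9.90 against 13.49 in the cortex on the control arrays. The part of these 3 lists in the zone differences was not tested. Within single treatments, 16 members were at least 1 lower in the outer medulla with EG and phlorizin, 9 with EG, 17 with phlorizin and 16 in the control, against 12.9%, 8.39%, 13.8% and 13.0% of all probe sets tested.

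**Figure D4:**
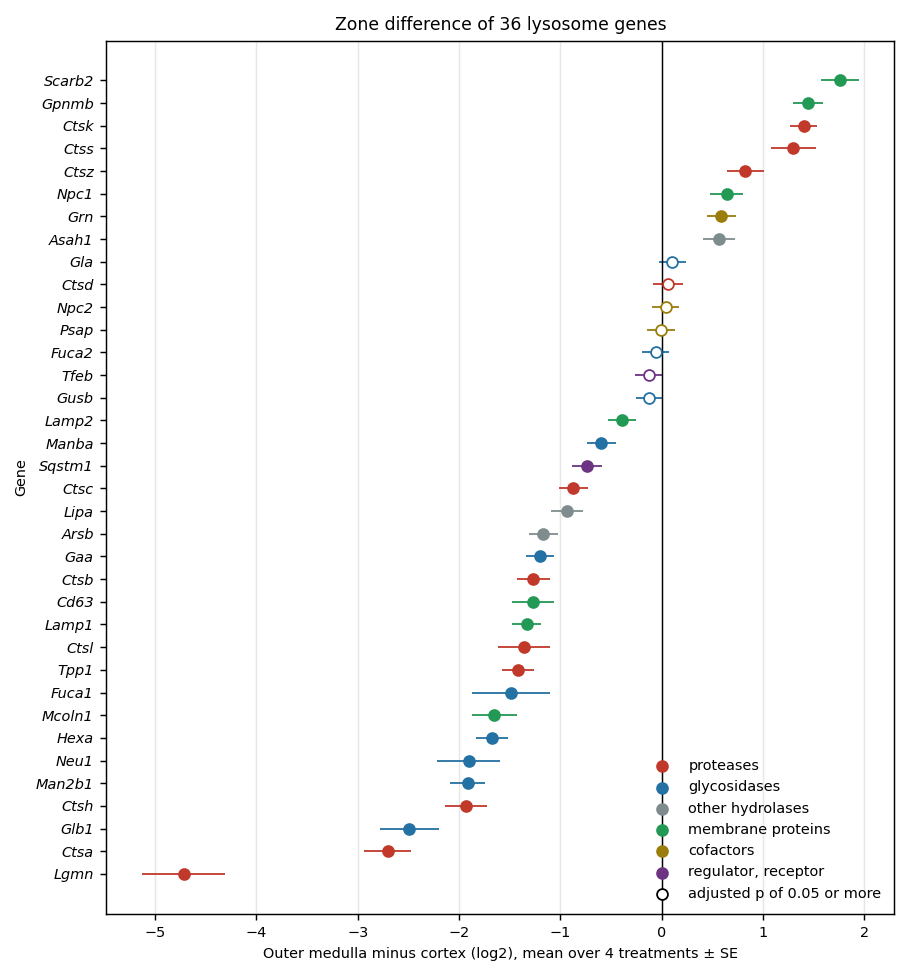
Outer medulla minus cortex log2 difference, the mean over 4 treatments with its standard error (x axis), for each of the 36 lysosome genes (y axis), coloured by class, filled where the limma adjusted p was under 0.05. Of 29 filled points, 21 lie left of 0, with Lgmn farthest left, and 8 lie right of 0.

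The promoters of the genes were set beside these values, because Tfeb and its relatives bind the palindrome CACGTG, and the longer TCACGTGA and the CLEAR consensus that extends it are the forms best known from lysosomal genes. RefSeq promoters of assembly GRCr8, 250 bases before to 50 bases from the start site, were matched for 31 of the 36 members. CACGTG occurred in 6 of 31 (19.4%), in Cd63, Ctsd, Gaa, Glb1, Lamp1 and Mcoln1, against 9.51% of the promoters of tested genes and 6.42% of all 33469. TCACGTGA, which contains CACGTG, occurred in 3 of 31 (9.68%), in Ctsd, Lamp1 and Mcoln1, against 1.71% and 0.777%. The full CLEAR consensus occurred in 0 of 31, against 0.516% and 0.233%. Each motif equals its own reverse complement, so 1 strand covers both. The 3 promoters with TCACGTGA belong to a gene above the arrays without EG (Ctsd), a gene that overlapped them in the outer medulla and lay below them in the cortex (Lamp1) and a gene below them (Mcoln1), and Gpnmb, the member with the largest EG difference, is shown beside them. Capitals mark each CACGTG or TCACGTGA, and the start site lies 50 bases before the right end.
Ctsd, chr1:206968772-206969071, minus strand: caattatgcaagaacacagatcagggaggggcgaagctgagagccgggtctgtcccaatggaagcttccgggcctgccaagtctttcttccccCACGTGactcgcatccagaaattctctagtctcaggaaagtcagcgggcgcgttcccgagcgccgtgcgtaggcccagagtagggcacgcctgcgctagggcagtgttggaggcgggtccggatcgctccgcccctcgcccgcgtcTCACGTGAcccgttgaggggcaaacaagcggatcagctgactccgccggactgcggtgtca
Lamp1, chr16:83075014-83075313, minus strand: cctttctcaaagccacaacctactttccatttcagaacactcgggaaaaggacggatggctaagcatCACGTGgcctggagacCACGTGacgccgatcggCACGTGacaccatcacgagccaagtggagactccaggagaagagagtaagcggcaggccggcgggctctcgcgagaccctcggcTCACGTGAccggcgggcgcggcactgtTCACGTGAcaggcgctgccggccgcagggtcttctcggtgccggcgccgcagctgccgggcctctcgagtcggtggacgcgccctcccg
Mcoln1, chr12:6358008-6358307, plus strand: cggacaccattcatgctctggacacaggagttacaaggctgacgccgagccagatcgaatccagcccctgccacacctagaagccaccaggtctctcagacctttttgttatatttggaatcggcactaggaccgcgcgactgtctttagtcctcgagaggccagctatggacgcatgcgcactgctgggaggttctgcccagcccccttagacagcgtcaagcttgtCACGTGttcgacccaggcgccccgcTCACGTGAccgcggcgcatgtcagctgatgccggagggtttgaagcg
Gpnmb, chr4:79340878-79341177, plus strand: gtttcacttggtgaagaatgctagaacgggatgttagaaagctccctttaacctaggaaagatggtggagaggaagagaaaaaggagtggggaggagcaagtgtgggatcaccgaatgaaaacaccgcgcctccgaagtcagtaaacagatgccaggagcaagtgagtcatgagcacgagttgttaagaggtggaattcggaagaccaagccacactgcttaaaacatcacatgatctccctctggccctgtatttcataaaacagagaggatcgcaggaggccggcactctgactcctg
A match is only a run of letters, and its absence from the Gpnmb window says only that these letters are not there. Sites of Tfeb and its relatives with other letters were not searched in any promoter. In Ctsd the TCACGTGA begins 11 bases before the start site, in Lamp1 66 and 39 bases before it, and in Mcoln1 just after it. The EG effects of Ctsd, Lamp1 and Mcoln1, averaged over zones, were 1.51, -0.14 and -0.66.

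The wider lysosome and autophagy system, taken from lists of genes other than the members, held 0 genes that passed the EG test at an adjusted p under 0.05 in limma. All 16 subunits of the ubiquitous V-ATPase, the proton pump that acidifies the lysosome, had a mean EG effect below 0, with a median of -0.38, while 7327 of the 13163 probe sets tested were below 0. Atp6v1a (-0.87), Atp6v0b (-0.68), Atp6v1e1 (-0.65) and Atp6v1h (-0.62) had the largest. Of 17 regulators around Tfeb, 16 were below 0 (median -0.51), among them Fnip2 (-0.96) and Flcn (-0.83), which form a complex that controls Tfeb, Lamtor1 (-0.83), a Ragulator subunit, and Ppargc1a (-0.68), a coactivator. Of 22 autophagy genes 19 were below 0 (median -0.29), with Bnip3, a mitophagy receptor, at -1.11. Sorting genes of the mannose 6-phosphate path had 13 of 15 below 0 (median -0.17), led by Gga2, an adaptor that sorts the tagged enzymes, at -1.005, and 9 of 15 were below 0 after quantile normalization. The 26 other hydrolases and cofactors and the 22 other membrane proteins and transporters had medians of -0.15 and -0.10, with Laptm5, an immune cell lysosomal protein, at 1.39 and Hyal1, a hyaluronidase, at -1.24. Of the 26, 8 rose and 9 fell in the outer medulla relative to the cortex, against 8 and 21 of the 36 members.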

How the data were processed

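Clariom S rat arrays of 8 samples were used as deposited: log2 values from RMA, as the submitters' processing notes name it, in a version not given in the sources used here. Their range, 2.40 to 19.7, is the basis for reading them as log2. Of 24834 probe sets, 1646 control and other sets were left out. A symbol was available for 15049 of 23188. No member had several probe sets. Probe sets whose highest value reached the median of all values (7.54) were tested, 13163 in all. limma 3.58.1 in R 4.3.3 gave moderated 2-sided tests with Benjamini-Hochberg adjustment over all of them, at 0.05. EG and phlorizin were fitted additively on 4 profiles, each a treatment's mean over both zones, the zone on 8 arrays with the treatment as a block, and EG by zone on 4 zone differences. Within a zone there is 1 array per group, so differences there carry no p and were counted from 1 on the log2 scale. The scripts were tested on simulated data. Python 3.11.15 with pandas 2.3.3 made the counts. All members are named; up to 4 genes of other lists were named by the size of their mean EG difference. The members and lists were chosen with earlier results of these data known. p-values measure the spread between these arrays only. In the fits on 4 profiles or 4 zone differences, the 1 residual degree of freedom is the EG by phlorizin interaction, not replicate noise. Signal over background limits dim genes.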

Additional observations from a re-analysis of the deposited data

Results flagged for a closer look

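For 4 glycosidases the EG difference lay above 0 in the outer medulla and below 0 in the cortex in both phlorizin arms, so every EG array moved opposite ways in the zones. For Fuca1 the EG effect was 1.52 higher in the outer medulla than in the cortex (limma adjusted p = 0.296), from differences of 0.55 with phlorizin and 0.95 without it in outer medulla RNA, and -0.39 and -1.17 in cortex RNA. For Glb1 the contrast was 1.19 (limma adjusted p = 0.326), and for Neu1 1.06 (limma adjusted p = 0.374). For Man2b1 it was 0.47 (limma adjusted p = 0.541). None of the 4 passed the test of the difference between zones. First proximal markers, which sat beside them, had a median EG minus control difference of 0.79 in outer medulla and -0.73 in cortex. With phlorizin on both sides the median EG differences were -0.41 and -0.18. In the outer medulla, EG minus control was above 0 for 10 of the 15 markers and below 0 for 5. Those 5 included Slc22a6 (-1.68) and Aqp1 (-1.24). The dimmest marker lay below the background probes on each outer medulla array, with Slc6a19 at 4.22 in the control. Values that dim carry little information. The part of these markers in the 4 glycosidase values was not tested.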

How the results depend on the processing

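The member count past the EG test, 0 as reported, was 5 with median centring (Ctsd, Ctsk, Ctss, Ctsz and Gpnmb), 3 with no brightness filter (Ctsd, Ctss and Gpnmb), 1 with a variance trend (Gpnmb), and 7 on 8 arrays either with the zone as a covariate or with the treatment as a random block as well (Ctsc, Ctsd, Ctsk, Ctss, Ctsz, Gpnmb and Gusb, of which Gusb reached the brightness limit on arrays with EG alone). Both fits on 8 arrays count a treatment's arrays of both zones as samples of their own, though these may share rats. The random block had a correlation of -0.10 between them. The member count was 2 in the outer medulla alone (Gpnmb and Lgmn). It stayed 0 with quantile normalization, a filter on the mean, a robust prior, the lowest-mean probe set of each symbol and the cortex alone. The count over all probe sets ranged from 0 to 1692. In the cortex alone, Lgmn reversed to -0.059. The 29 members past the zone test were 23 to 28 when 1 treatment was left out, and Lamp2 reversed to 0.016 under quantile normalization. Within zones, the counts at least 1 apart became 17 and 4 in the outer medulla and 18 and 4 in the cortex for EG minus control at 1.5-fold and at 2 on the log2 scale. For EG with phlorizin minus EG they became 9 and 1 in the outer medulla and 11 and 1 in the cortex, and for EG with phlorizin minus phlorizin 8 and 1 in the outer medulla and 6 and 1 in the cortex. Shares over all probe sets are not given for each setting or threshold, so these counts show only how far the member counts move. The phlorizin and EG by zone counts were 0 in every setting run. No paired analysis was possible because the labels give no replicate numbers, other than by treatment, which is already the block of the zone test and pairs the arrays in the EG by zone test. With 1 array per group and 4 treatment profiles, animal-to-animal spread was not measured, and values near the background of 5.53 to 5.68 carry little information.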

Other observations

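Of 8 cystatin and serpin genes and related inhibitors listed, 6 were tested and 0 passed the EG test (limma adjusted p under 0.05), and 5 had a mean EG effect above 0. Timp1, an inhibitor of metalloproteinases, had an effect of 3.58 (limma adjusted p = 0.0771), Serpinb9, an inhibitor of granzyme B, 0.90, and Cst3, which encodes cystatin C, the inhibitor of cysteine cathepsins, 0.39. The EG minus control difference of Cst3 in the cortex was -0.08. Of 9 endothelial markers, 5 in outer medulla and 4 in cortex were at least 1 lower with EG than in the control, and of 11 collecting duct markers 6 and 9. Straight proximal segment markers were at least 1 lower with EG in 2 of 7 in outer medulla and 5 of 7 in cortex. Over all probe sets tested, 9.69% and 12.7% were that much lower in outer medulla and cortex.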
